A study of Mus musculus with 12 samples.

Results

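The 34 genes described here are splicing factors, the kinases and cyclins that act on them, and RNAs of nuclear speckles. They were taken by gene name from the 41457 genes of the deposited tables, and all 34 were found. They comprise 10 SR proteins, the TRA2 proteins Tra2a and Tra2b, the kinases Clk1 to Clk4 and Prpf4b, the cyclins Ccnl1 and Ccnl2, the long non-coding RNAs Malat1 and Neat1, 4 U1 snRNP and LUC7-like proteins, 3 RBM proteins, the 4 speckle scaffold proteins Son, Srrm1, Srrm2 and Pnisr, and the DEAD-box helicases Ddx5 and Ddx17. The genes lie on 15 chromosomes, and 32 of them are annotated as protein coding.

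Poly(A) RNA of mouse CD4+ T cells was sequenced after culture under Th1, Th2 or Th17 conditions, from NFATc1/ΔS and wild-type (WT) C57BL/6 mice, at day 3.5 and day 2.5. NFATc1/ΔS mice carry an NFATc1, a transcription factor activated by T cell receptor signalling, that cannot be SUMOylated. Reads per gene cannot check this change. There were 12 libraries, 1 for each combination, so a group had no replicate and the spread among libraries that share a comparison is the only error. Nothing in the labels tells if the cells of each library had their own mouse or culture dish; p-values therefore reflect variation between these libraries only, which may be technical. All cells were purified as CD4+ from lymph node and spleen and stimulated with anti-CD3 and anti-CD28. Th1 cultures also received IL-12 and anti-IL-4, Th2 cultures IL-4 and anti-IFN-γ, and Th17 cultures TGFβ, IL-6, anti-IFN-γ and anti-IL-4. Th17 cells were grown in IMDM with less anti-CD3 and the others in RPMI, and for Th17 the effect of the medium cannot be told apart from that of the cell type. The stated stimulation period ended between the days sampled. The sources used here give neither the age of the mice nor how many were pooled.

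Libraries held 13417121 to 17774400 gene reads, of which 2.28% to 4.34% were intron reads, and the 34 genes took 0.441% to 0.794% of the exon reads. Defining T cell genes such as Cd3e (293.0 to 432.5 CPM, the read count scaled to library depth with TMM factors) were present in all 12. Tbx21 had 32.7 to 65.3 CPM in the Th1 libraries and Gata3 547.3 to 703.8 CPM in Th2. The libraries labelled Th1 NFATc1/ΔS day 2.5 and Th1 WT day 2.5 stood apart. The log2 profile of Th1 NFATc1/ΔS day 2.5 correlated across genes at 0.903 to 0.963 with the other 11 libraries. That of Th1 WT day 2.5 was closer to Th17 WT day 3.5 (0.985) than to any Th1 library (at most 0.971). Whether samples or labels were exchanged was not tested, and every Th1 value rests on the labels being right. Comparisons that use these libraries are given with and without them. Markers of other cells were low: summed over 9 B cell genes 3.9 to 8.5 CPM in Th1, 35.0 to 48.9 in Th2 and 13.4 to 29.9 in Th17, and over 9 myeloid genes 3.6 to 17.9 CPM. The sum over 7 CD8 T and NK cell genes was 27.6 to 67.8 CPM. It was highest in Th1 WT day 2.5 (67.8 CPM) and Th1 NFATc1/ΔS day 2.5 (61.4 CPM). Over 6 erythroid genes the sum was 1.7 to 24.4 CPM.

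SR proteins bind exonic sequences through RNA recognition motifs and recruit the spliceosome through arginine- and serine-rich domains. Clk kinases phosphorylate these domains and release SR proteins from nuclear speckles, the bodies in which splicing factors are stored around scaffolds such as Son and Srrm2. Cyclins L1 and L2 are speckle proteins that partner CDK11 kinases. Malat1 is the abundant non-coding RNA of speckles, and Neat1 builds paraspeckles. Many SR protein and Clk transcripts are known to keep introns or to carry exons with premature stop codons, by which their amounts are regulated, and T cell activation is known to change splicing factor levels.

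The annotation of GRCm38 (GENCODE M21) lists transcripts of the class retained_intron for 28 of the 34 genes and transcripts subject to nonsense-mediated decay for 30. Ccnl1 has 8 of the first kind and 5 of the second, Clk1 has 7 and 2, Clk4 has 7 and 3, and Rbm5 has 13 and 4. The deposited exon length equalled the union of these annotated exons for 34 of 34 genes. An intron kept in such a transcript is therefore exonic in the table, and the intron reads described below come from the remaining introns. Malat1 and Neat1 have no intron bases in the table.

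Malat1 was measured here in RNA selected by poly(A). Its mature 3′ end is known to be made by cleavage next to a genome-encoded A-rich tract, not by polyadenylation. The longest A run in the annotated transcript is 12 bases, at chr19:5795963-5796024 (GRCm38, minus strand, with flanks), and is shown in capitals as the stretch that oligo(dT) can hold.
Malat1 A-rich tract: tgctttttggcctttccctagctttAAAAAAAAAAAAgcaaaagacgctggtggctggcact

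Promoters, 1 per gene of 300 bases that end shortly after the start site (RefSeq, GRCm38.p6), were present for 30 of the 34 genes. They are shown for 4 of the 5 genes whose day difference depended on genotype and for Srsf1, which rose most between days in Th2 and Th17 cells. Pnisr has no entry. Capitals mark every match, on either strand, of 7 motifs searched: the NFAT core GGAAA, the AP-1 site TGAGTCA, the E-box CACGTG, the CCAAT box CCAAT, the GC box GGGCGG, the cAMP response element TGACGTCA and the TATA element TATAAA. The regions are chr19:5802623-5802922 (minus strand) for Malat1, chr3:65958200-65958499 (minus) for Ccnl1, chr12:80945249-80945548 (plus) for Srsf5, chr9:107770953-107771252 (minus) for Rbm5 and chr11:88047123-88047422 (plus) for Srsf1.
Malat1: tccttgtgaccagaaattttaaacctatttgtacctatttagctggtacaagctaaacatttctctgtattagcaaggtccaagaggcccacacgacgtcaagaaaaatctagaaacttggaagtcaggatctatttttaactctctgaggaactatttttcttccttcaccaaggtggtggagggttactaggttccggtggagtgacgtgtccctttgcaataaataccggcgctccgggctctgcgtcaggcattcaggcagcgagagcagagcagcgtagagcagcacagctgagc
Ccnl1: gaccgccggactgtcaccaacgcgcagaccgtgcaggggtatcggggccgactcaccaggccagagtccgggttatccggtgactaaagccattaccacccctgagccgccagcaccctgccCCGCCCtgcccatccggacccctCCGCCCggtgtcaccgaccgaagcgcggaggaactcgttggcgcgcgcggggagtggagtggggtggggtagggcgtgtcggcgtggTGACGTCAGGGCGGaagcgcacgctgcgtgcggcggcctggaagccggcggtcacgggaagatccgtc
Srsf5: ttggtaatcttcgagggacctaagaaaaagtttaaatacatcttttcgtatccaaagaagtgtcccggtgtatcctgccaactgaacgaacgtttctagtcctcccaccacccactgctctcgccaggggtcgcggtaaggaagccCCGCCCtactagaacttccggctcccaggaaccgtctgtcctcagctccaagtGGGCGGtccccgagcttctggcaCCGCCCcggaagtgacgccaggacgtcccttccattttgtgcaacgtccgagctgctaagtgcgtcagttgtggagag
Rbm5: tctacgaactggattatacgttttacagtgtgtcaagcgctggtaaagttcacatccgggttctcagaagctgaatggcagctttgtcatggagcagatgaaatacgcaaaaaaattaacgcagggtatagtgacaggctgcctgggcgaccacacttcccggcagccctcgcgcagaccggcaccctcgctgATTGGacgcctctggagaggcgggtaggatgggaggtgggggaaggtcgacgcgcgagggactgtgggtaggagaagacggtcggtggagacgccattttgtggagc
Srsf1: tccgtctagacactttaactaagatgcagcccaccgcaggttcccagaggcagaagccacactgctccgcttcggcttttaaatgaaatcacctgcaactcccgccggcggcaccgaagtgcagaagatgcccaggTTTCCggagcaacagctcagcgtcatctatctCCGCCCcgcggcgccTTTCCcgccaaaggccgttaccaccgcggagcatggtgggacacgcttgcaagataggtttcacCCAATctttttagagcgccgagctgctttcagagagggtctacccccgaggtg

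The NFAT core letters occurred in 13 of the 30 promoters (43.3%), and in 61.3% of 27025 promoters of the same length. Of the 5 shown, only that of Srsf1 held them, in 2 places, and that of Malat1 held none of the 7 motifs. The GC box occurred in 21 of the 30 (70%) and in 35.9% of all promoters, and the CCAAT box in 13 of the 30 and in 37.9% of all. The cAMP response element occurred in Ccnl1, Clk4 and Tra2a, and in 1.88% of all promoters. A match is a description of these letters only.

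Per kilobase of exon, Ddx5, an RNA helicase, was the most abundant of the 34 (mean 129.81 CPM per kb, 93.87 to 162.27 over 12 libraries). Srsf5 followed at a mean of 66.39 CPM per kb, and Srsf2 at 54.76 CPM per kb, but only 5.7% of its exon reads are unique in the table, so its level is uncertain. Neat1 was lowest (mean 1.48 CPM per kb), followed by Pnisr (3.48), an arginine- and serine-rich speckle protein, and Clk4 (4.74). Ccnl1 averaged 5.97 CPM per kb and Malat1 17.59 CPM per kb. Each gene overlapped its neighbour in this order over the 12 libraries, except Neat1 (0.42 to 2.16 CPM per kb) and Pnisr (2.58 to 5.08 CPM per kb).

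Of the 34 genes, 16 had their highest level in Th1 NFATc1/ΔS day 2.5 and 7 their lowest. This library stood apart over all genes, and the share of all genes with an extreme level there was not computed. The counts therefore do not show a trait of the 34. In that library Srsf1 had 576.5 CPM against 70.9 to 206.1 CPM in the other 11, and Srsf6 250.0 CPM against 44.4 to 94.8 CPM. Neat1 (8.7 CPM), Malat1 (65.3 CPM), Clk1 (38.5 CPM) and Clk4 (15.1 CPM) were lower there than anywhere else. Srsf1 and Srsf6 were thus high and Clk1, Clk4, Malat1 and Neat1 low in the same library, and this is 1 library without a replicate.

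The time comparison asked how the 34 genes differed between day 3.5 and day 2.5. Over all 12 libraries none passed the test (edgeR quasi-likelihood, Benjamini-Hochberg adjusted p below 0.05), and neither did any of the 12554 genes tested (0%, with 1289 at an unadjusted p below 0.05; DESeq2 called 136 genes and none of the 34). Rbm39, a U2AF-related splicing factor, had the smallest p (log2 fold change −0.28 ± 0.10 SE, adjusted p = 0.432, edgeR), and Malat1 the next (0.53 ± 0.22, adjusted p = 0.466, edgeR). By sign alone, most Th1 ratios ran against the others. Of 21 genes with the same direction in all 4 Th2 and Th17 pairs of days, 15 had the opposite direction in Th1 NFATc1/ΔS and 19 in Th1 WT. In Th1 WT most ratios were small: the median log2 ratio over the 34 genes was −0.05, with 1 above 0.5 and 2 below −0.5. In Th1 NFATc1/ΔS the median was −0.42, with 7 above 0.5 and 12 below −0.5. The same counts over all genes were not computed.

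**Figure D1:**
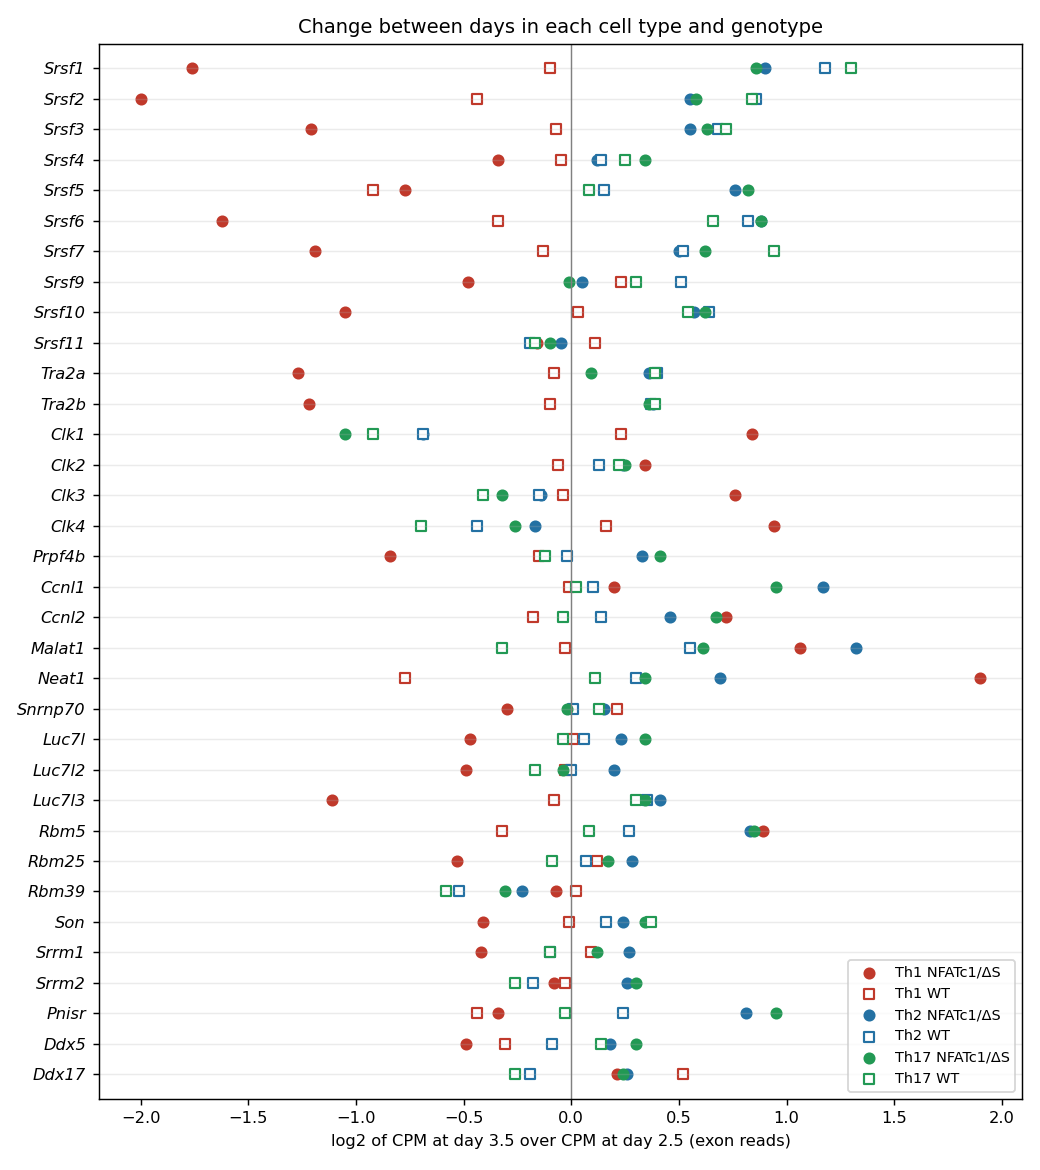
Each point is the log2 ratio of CPM at day 3.5 over day 2.5 for a gene in a cell type and genotype (filled circles NFATc1/ΔS, open squares WT; 2 libraries per point). In Th1 NFATc1/ΔS Srsf1 lies at −1.76 and Srsf2 at −2.0, while the Th2 and Th17 points of Srsf1 lie between 0.86 and 1.3.

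In the 8 Th2 and Th17 libraries alone, a subset chosen after the 12 had been examined, 20 of the 34 genes passed the same test, 16 higher and 4 lower at day 3.5. Of all 12238 genes tested, 41.2% passed (21% higher and 20.1% lower), and the median log2 fold change was 0.25 over the 34 genes and 0.03 over all genes. SR proteins made up 8 of the 16 that rose, with only Srsf9 and Srsf11 not passing. Where days are said below not to overlap, the genes had been picked by the size of their change. The share of all genes without overlap between days was not computed. Bulk RNA does not tell fewer expressing cells from less RNA per cell.

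Srsf1, the SR protein known as SF2/ASF, had 167.0 CPM at day 3.5 and 89.3 at day 2.5 in Th2 NFATc1/ΔS, and 160.9 and 70.9 CPM in Th2 WT. In Th17 it had 153.0 and 84.2 CPM in NFATc1/ΔS and 206.1 and 83.9 CPM in WT. All 4 day 3.5 libraries were above all 4 day 2.5 libraries, and the log2 fold change was 1.06 ± 0.08 (SE; adjusted p = 1.64e-05, edgeR). Srsf6, which also regulates exon choice, had 90.3, 78.2, 86.8 and 94.8 CPM at day 3.5 in Th2 NFATc1/ΔS, Th2 WT, Th17 NFATc1/ΔS and Th17 WT, and 49.0, 44.4, 47.2 and 60.0 CPM at day 2.5 in the same order. Its groups did not overlap either, and its log2 fold change was 0.81 ± 0.07 (adjusted p = 1.98e-05, edgeR).

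Srsf3, a small SR protein that also acts in mRNA export, had 258.0, 240.7, 254.3 and 266.5 CPM at day 3.5 in that order, and 176.2, 149.8, 164.6 and 162.0 CPM at day 2.5 (log2 fold change 0.65 ± 0.06, adjusted p = 3.92e-05, edgeR). Srsf7, a zinc-knuckle SR protein, had 92.6 to 132.7 CPM at day 3.5 and 64.4 to 79.7 CPM at day 2.5 (0.65 ± 0.08, adjusted p = 0.000182, edgeR). Srsf10 had 80.9 to 92.3 CPM at day 3.5 and 51.7 to 63.6 CPM at day 2.5 (0.59 ± 0.06, adjusted p = 6.63e-05, edgeR). Days did not overlap for any of these 3. Srsf2 (SC35, the classical speckle marker) had a log2 fold change of 0.71 ± 0.07 (adjusted p = 6.37e-05, edgeR), with 146.9, 140.1, 165.5 and 176.1 CPM at day 3.5 and 100.3, 77.1, 110.4 and 98.3 CPM at day 2.5. It did not pass on unique exon reads (0.20, adjusted p = 0.192, edgeR) or on exon-exon reads (0.16, adjusted p = 0.308, edgeR), and Mettl23 overlaps it. The other genes that rose had log2 fold changes of 0.21 to 0.51: Srsf4, Srsf5, Tra2a, Tra2b, Clk2, Ccnl2, Neat1, Luc7l3, Rbm5 and Son. Tra2a, Tra2b, Luc7l3 and Son passed in every setting tried, and the others did not. Srsf5 was lost on leaving out any 1 of 4 libraries, with DESeq2 and in 3 other settings (adjusted p = 0.0503 to 0.177, edgeR or DESeq2). Rbm5 was lost on leaving out any 1 of 4 libraries and in 2 other settings, Srsf4 for 5 libraries and in 1 other setting, and Neat1 for 2 libraries and in 2 other settings. Ccnl2 was lost for 6 libraries and in 4 other settings, and stood at −0.01 (adjusted p = 0.969, edgeR) when exon-exon reads alone were counted.

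Of the 4 Clk kinases, 3 fell and 1 rose. Clk1 had 68.1 and 73.7 CPM at day 3.5 in Th2 NFATc1/ΔS and Th2 WT and 54.3 and 58.2 CPM in Th17 NFATc1/ΔS and Th17 WT. At day 2.5 it had 110.1 and 118.9 CPM in Th2 NFATc1/ΔS and Th2 WT and 112.8 and 110.3 CPM in Th17 NFATc1/ΔS and Th17 WT. Every day 3.5 library was below every day 2.5 library (log2 fold change −0.84 ± 0.08, adjusted p = 3.33e-05, edgeR). Clk4 (−0.39 ± 0.09, adjusted p = 0.0076, edgeR) and Clk3 (−0.26 ± 0.07, adjusted p = 0.0118, edgeR) also fell, and Clk2 rose (0.21 ± 0.07, adjusted p = 0.0371, edgeR). Clk2 did not pass on leaving out any of the 8 libraries, nor in 5 other settings, DESeq2 and RLE size factors among them (adjusted p = 0.0532 to 0.266, edgeR or DESeq2). Clk3 did not pass without Th17 NFATc1/ΔS day 2.5 (adjusted p = 0.0574, edgeR). Clk4 had 27.8, 25.3, 26.6 and 21.6 CPM at day 3.5 in the order above, and 31.3, 34.3, 31.8 and 35.2 CPM at day 2.5. Clk3 had 126.2, 129.8, 120.8 and 108.7 CPM at day 3.5, and 139.3, 144.0, 151.1 and 144.6 CPM at day 2.5. Neither gene overlapped between days. Rbm39 fell as well, with 223.3, 184.7, 208.8 and 178.2 CPM at day 3.5 and 261.1, 265.1, 258.7 and 267.1 CPM at day 2.5 (−0.41 ± 0.07, adjusted p = 0.00139, edgeR). Clk3 overlaps Edc3, and no strand marking is named for the kit, so their reads may be mixed.

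Malat1 (0.54 ± 0.29, adjusted p = 0.223, edgeR) and Ccnl1 (0.56 ± 0.22, adjusted p = 0.1, edgeR) did not pass, and their days differed by genotype as described below. The remaining 12 that did not pass were Srsf9, Srsf11, Prpf4b, Snrnp70, Luc7l, Luc7l2, Rbm25, Srrm1, Srrm2, Pnisr, Ddx5 and Ddx17, with log2 fold changes of −0.13 to 0.50. Markers of other cells moved with the day in these libraries. All 4 erythroid genes tested, of 6, were lower at day 3.5, with a summed 1.7 to 3.0 CPM at day 3.5 and 7.8 to 24.4 CPM at day 2.5. Of 5 CD8 T and NK cell genes tested, of 7, 3 were lower, with a summed 27.6 to 37.5 CPM at day 3.5 and 34.1 to 54.1 CPM at day 2.5. Their part in the result was not tested.

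Whether the day difference was equal in Th1, Th2 and Th17 was tested over all 12 libraries. It differed for 1 of the 34, Clk1 (adjusted p = 0.0348, edgeR), and for 4.5% of 12554 genes. Clk1 was higher at day 3.5 in Th1, with 68.8 CPM at day 3.5 and 38.5 at day 2.5 in NFATc1/ΔS and 73.8 and 62.9 CPM in WT, against the fall in Th2 and Th17. Without Th1 NFATc1/ΔS day 2.5 the test called 9 of the 34 and 26.3% of genes, namely Clk1, Srsf1, Srsf2, Srsf3, Srsf6, Srsf7, Srsf10, Tra2b and Neat1. Leaving out Th1 NFATc1/ΔS day 3.5 called 9 too (26.1% of genes), either Th1 WT library 21 (50.8% of genes for each), and any Th2 or Th17 library 0 (0.116% to 0.333% of genes; Clk1 adjusted p = 0.179 to 0.189, edgeR). When a Th1 library was left out, the Th1 day difference rested on 1 pair of libraries, so those calls hold no spread within Th1. In Th1 WT, Srsf1 had 161.5 CPM at day 3.5 and 173.7 CPM at day 2.5 and Srsf6 64.0 and 81.0 CPM.

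The genotype comparison asked whether the 34 genes differed between NFATc1/ΔS and WT cells. Over 6 pairs of the same cell type and day, none passed (0.00797% of 12554 genes did, edgeR), with 1 of the 34 at an unadjusted p below 0.05 (5.79% of all genes) and 29 higher in NFATc1/ΔS (50.4% of all genes). The pairs were not alike in this. At day 2.5, 16 of the 34 were higher in NFATc1/ΔS in Th2, 14 in Th17 and 26 in Th1. At day 3.5 the counts were 31 in Th2, 18 in Th17 and 29 in Th1. Srsf4 had the smallest p (0.15 ± 0.06, higher in NFATc1/ΔS in 6 of 6 pairs, adjusted p = 0.828, edgeR), followed by Rbm39 (0.15 ± 0.07, adjusted p = 0.828, edgeR, higher in 4 of 6). DESeq2 gave 0 of the 34 too. Over the 4 Th2 and Th17 pairs none passed either, against 2.69% of 12238 genes, and Srsf4 and Son had the smallest p (adjusted p = 0.223 and 0.314, edgeR). In Th1 at day 2.5 the pair differed by more than 0.5 on the log2 scale for 21 genes, 15 higher and 6 lower in NFATc1/ΔS; at day 3.5 it did for 1. Both libraries of the Th1 day 2.5 pair are those that stood apart over all genes. The share of all genes that differed by more than 0.5 was not computed.

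In Th2 and Th17 cells the difference between genotypes depended on the day, for 5 of the 34 genes. This test was added after the data had been examined. It compared the NFATc1/ΔS to WT ratio at day 3.5 with that at day 2.5 across the 8 libraries and called 0.286% of 12238 genes (0.188% higher and 0.0981% lower). Malat1, Ccnl1, Srsf5, Pnisr and Rbm5 passed, all with the NFATc1/ΔS to WT ratio higher at day 3.5. The median of this difference was 0.15 on the log2 scale over the 34 genes and 0.00 over all genes. Of the 34, 22 were positive in both cell types and 7 negative in both, and these shares were not computed for all genes.

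Malat1 had 211.7 CPM in Th2 NFATc1/ΔS and 137.5 in Th2 WT at day 3.5, and 85.0 and 94.2 CPM at day 2.5. In Th17 it had 180.7 CPM in NFATc1/ΔS and 106.2 in WT at day 3.5, and 118.1 and 132.5 CPM at day 2.5. NFATc1/ΔS was above WT at day 3.5 and below it at day 2.5 in both cell types, and the difference of the log2 ratios was 0.85 ± 0.11 (SE; adjusted p = 0.00053, edgeR). Ccnl1 had 47.6 CPM in Th2 NFATc1/ΔS and 26.8 in Th2 WT at day 3.5, and 21.2 and 25.1 CPM at day 2.5. In Th17 it had 53.3 and 37.2 CPM at day 3.5, and 27.6 and 36.6 CPM at day 2.5, NFATc1/ΔS before WT. Its difference was 1.00 ± 0.14 (adjusted p = 0.00209, edgeR), again with the genotypes in opposite order on the 2 days.

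Srsf5, whose splicing activity is linked to growth signals, had 389.2 CPM in Th2 NFATc1/ΔS and 281.3 in Th2 WT at day 3.5, against 230.1 and 253.8 CPM at day 2.5. In Th17 it had 354.1 CPM in NFATc1/ΔS and 269.5 in WT at day 3.5, and 201.2 and 255.1 CPM at day 2.5 (difference 0.67 ± 0.11, adjusted p = 0.00473, edgeR). Pnisr had 46.2 CPM in Th2 NFATc1/ΔS and 31.3 in WT at day 3.5, against 26.3 and 26.4 CPM at day 2.5; in Th17 it had 51.7 and 35.0 CPM, against 26.7 and 35.6 CPM (0.78 ± 0.14, adjusted p = 0.0137, edgeR). Rbm5, an alternative splicing regulator, had 119.3 and 85.5 CPM in Th2 at day 3.5 and 67.0 and 71.2 CPM at day 2.5, and in Th17 122.4 and 100.5 CPM and 68.0 and 94.9 CPM (0.67 ± 0.13, adjusted p = 0.0456, edgeR). All 5 genes were highest, within Th2 and within Th17, in NFATc1/ΔS at day 3.5.

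**Figure D2:**
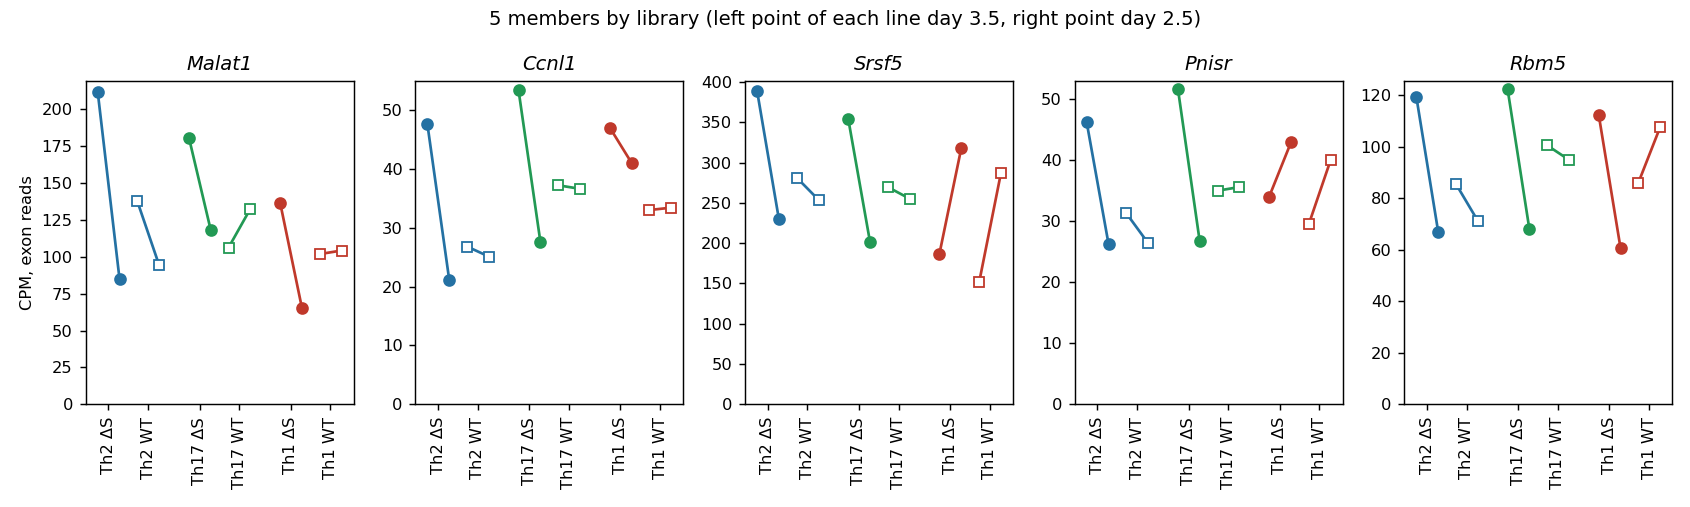
CPM of exon reads of 5 genes in the 12 libraries, day 3.5 at the left and day 2.5 at the right of each line (filled circles NFATc1/ΔS, open squares WT). In Th2 and in Th17 the NFATc1/ΔS line has the highest day 3.5 point of its panel, with 211.7 CPM of Malat1 in Th2 and 53.3 CPM of Ccnl1 in Th17.

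Without a filter on low counts this test called 8 of the 34, DESeq2 called 2 (Malat1 and Srsf5), and with no blocks for cell type and day, or with the Th1 libraries added, it called 0. Leaving out Th17 NFATc1/ΔS day 2.5 or Th17 WT day 2.5 left 1, Malat1 (0.84 in both), and leaving out any other library gave 5, though Rbm5 did not pass without either Th2 day 3.5 library. In Th1 the Malat1 ratio ran the same way (136.6 CPM in NFATc1/ΔS and 101.8 in WT at day 3.5, against 65.3 and 104.2 CPM at day 2.5), and the difference of the log2 ratios there was 1.1 for Malat1, 1.22 for Rbm5, 0.21 for Ccnl1, 0.16 for Srsf5 and 0.1 for Pnisr. The intron share of all genes moved with the result. It was 3.98% in Th2 NFATc1/ΔS and 2.93% in Th2 WT at day 3.5, and 2.32% and 2.28% at day 2.5. In Th17 it was 4.16% and 3.28% at day 3.5, and 2.89% and 3.44% at day 2.5. Its part in the result was not tested.

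**Figure D3:**
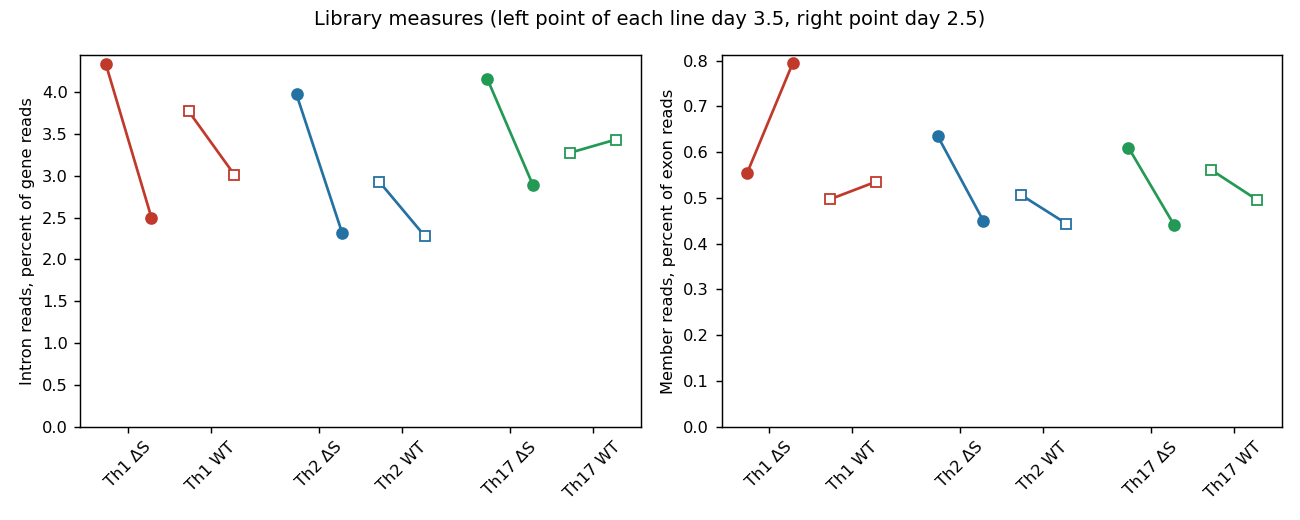
Intron reads of all genes as a percent of gene reads (left panel) and reads of the 34 genes as a percent of exon reads (right panel) in each library, day 3.5 at the left and day 2.5 at the right of each line. NFATc1/ΔS at day 3.5 has the highest intron share of each cell type (4.34%, 3.98% and 4.16% in Th1, Th2 and Th17), and Th1 NFATc1/ΔS day 2.5 the highest share of the 34 genes (0.794%).

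Between cell types few of the 34 genes passed on exon reads over all 12 libraries. Th1 against Th2 called 1, Srsf7 (log2 fold change 0.95 ± 0.31, adjusted p = 0.0465, edgeR), among 28.6% of 12554 genes. Srsf7 had 126.3 CPM at day 3.5 and 288.7 at day 2.5 in Th1 NFATc1/ΔS and 118.8 and 129.6 CPM in Th1 WT, against 64.4 to 106.1 CPM in Th2. Srsf9 came next (0.38 ± 0.13, adjusted p = 0.0566, edgeR). Th1 against Th17 called none (4.87% of genes), with Srsf9 at 0.53 ± 0.13 (adjusted p = 0.0541, edgeR) and Snrnp70 at 0.29 ± 0.10 (adjusted p = 0.122, edgeR). Th2 against Th17 called none (11.9% of genes), with Clk2 at 0.29 ± 0.09 (adjusted p = 0.0724, edgeR) and Ccnl1 at −0.39 ± 0.16 (adjusted p = 0.166, edgeR).

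Without both Th1 day 2.5 libraries each of these comparisons called 7 of the 34, against 47.6%, 30.7% and 42% of genes. This setting was chosen after the data had been examined. Th1 then entered these comparisons at day 3.5 only. Th1 was lower than Th2 for Srsf5, Ddx5, Srsf4, Neat1, Srrm1 and Srsf2 and higher for Ddx17. At day 3.5 Srsf5 had 186.9 and 151.2 CPM in Th1 (NFATc1/ΔS and WT), against 389.2 and 281.3 CPM in Th2 (log2 fold change −0.98 ± 0.08, adjusted p = 2.49e-06, edgeR). It was also lower than in Th17 (−0.88 ± 0.08, adjusted p = 1.27e-05, edgeR), where it had 354.1 and 269.5 CPM at day 3.5. In the Th1 day 2.5 libraries, left out there, Srsf5 had 317.7 and 286.8 CPM. These values were above those at day 2.5 in Th2 (230.1 and 253.8 CPM) and Th17 (201.2 and 255.1 CPM). At day 2.5 the direction was thus the opposite. Srsf7 was not among the 7 for Th1 against Th2. Th1 against Th17 called 3 higher (Ddx17, Srsf9 and Snrnp70) and 4 lower (Srsf5, Srsf2, Pnisr and Ddx5). Ddx5 was higher in Th2 than in Th17 (0.34 ± 0.06, adjusted p = 0.000767, edgeR) and Ccnl1 lower (−0.38 ± 0.08, adjusted p = 0.00244, edgeR), among 4 higher and 3 lower. Without Th1 NFATc1/ΔS day 2.5 alone, Th1 against Th2 called 2 of the 34, both lower, Ddx5 (−0.53) and Srrm1 (−0.27), against 32.8% of genes. Th1 against Th17 then called 1, Srsf9 (0.38), against 7.5% of genes, and Th2 against Th17 called 3, Ccnl1 (−0.38), Ddx5 (0.34) and Clk2 (0.29), against 22.4% of genes.

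Intron reads can come from RNA not yet spliced or from kept introns that the annotation does not count as exonic. Their origin was not tested, and 20 of the 34 genes overlap another gene, whose reads may be mixed in. Intron reads were 3.58% of the reads of the 34 genes and 3.263% of those of all genes, pooled over the 12 libraries. The share spanned a wide range among the 32 genes with introns. It was highest for Ccnl1 (18.92% over 12 libraries, 15.45% to 23.74%), Clk4 (16.79%, 7.55% to 22.83%) and Luc7l2 (15.18%), a U1 snRNP-associated protein. It was below 0.5% for Srsf1, Srsf2, Srsf3, Srsf5 and Srsf6. The share is not scaled to the intron bases of a gene, which were 236 for Srsf2, 673 for Srsf1 and 46053 for Luc7l2. In all, 15 genes were above the share of all genes and 17 below. Ccnl1 also had the highest ratio of intron to exon reads per kilobase, 22.93%, against 9.44% for Clk1, 9.24% for Srsf10 and 8.21% for Clk4. Per kilobase the order of other genes changed: Srsf1 had 3.41% and Srsf4 1.58%, though their shares were 0.4% and 9.81%.

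Ccnl1 had an intron share of 20.92% at day 3.5 and 16.12% at day 2.5 in Th2 NFATc1/ΔS, and of 18.38% and 15.45% in Th2 WT. In Th17 it was 19.92% and 16.36% in NFATc1/ΔS and 18.8% and 16.75% in WT. In Th1 WT it was 20.59% and 18.68%, and in Th1 NFATc1/ΔS 16.07% at day 3.5 and 23.74% at day 2.5. The share was higher at day 3.5 in all but Th1 NFATc1/ΔS. Set against its exon reads and scaled to the intron reads of each library, Ccnl1 did not pass between days in Th2 and Th17 (log2 fold change −0.07 ± 0.17, adjusted p = 0.859, edgeR) or over 12 libraries (−0.36 ± 0.20, adjusted p = 0.427, edgeR). The intron share of all genes was higher at day 3.5 too, in both Th2 pairs and in Th17 NFATc1/ΔS, as given above. Clk4 ranged more widely, with 22.83% at day 3.5 and 9.19% at day 2.5 in Th2 NFATc1/ΔS and 14.77% and 7.55% in Th2 WT.

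**Figure D4:**
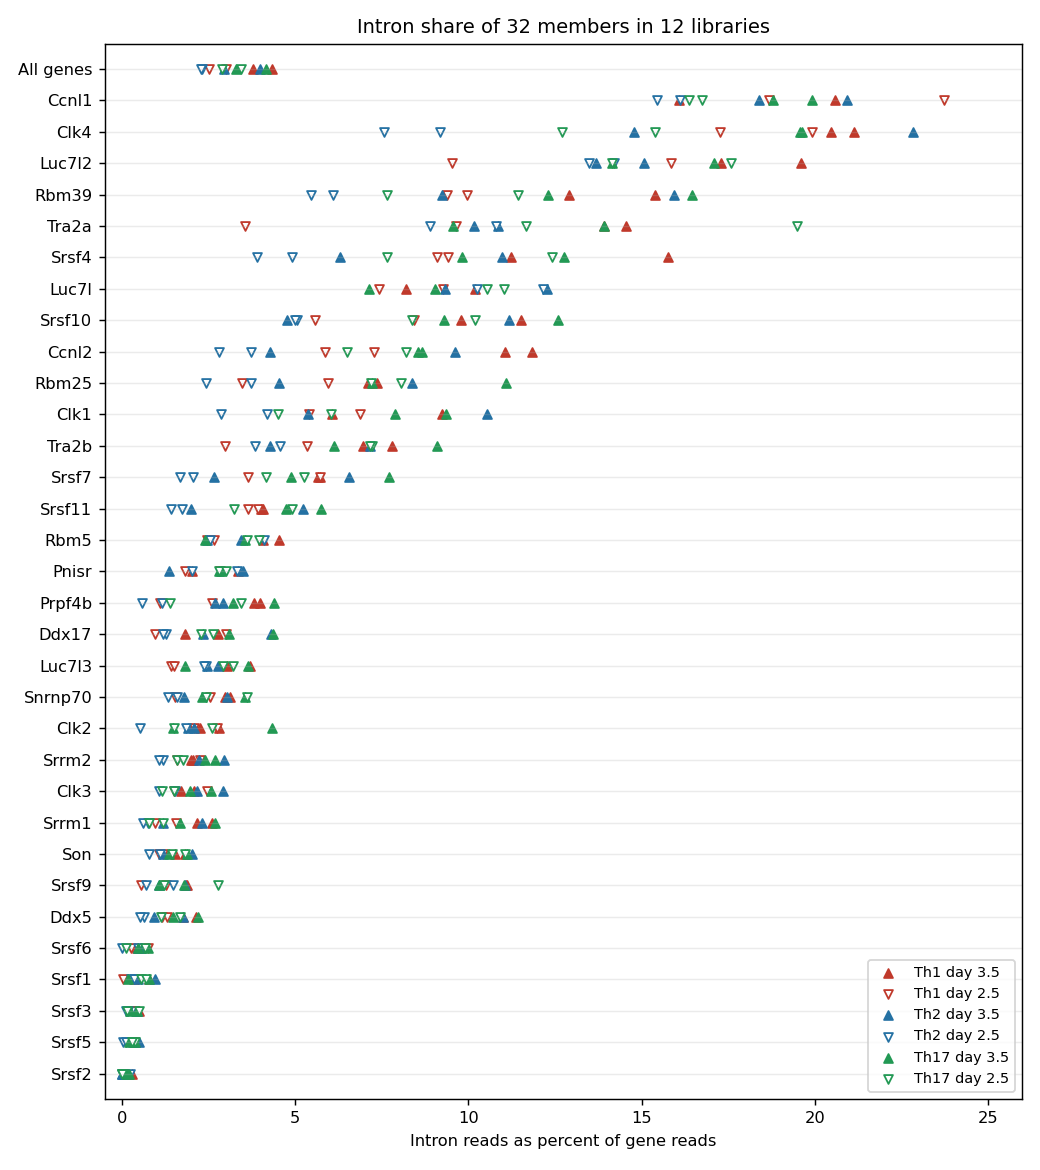
Intron reads as a percent of gene reads for the 32 genes with introns, ordered by their share over 12 libraries, with all genes in the top row (filled triangles day 3.5, open triangles day 2.5; both genotypes share a symbol). Ccnl1 lies between 15.45% and 23.74%, and the 5 SR proteins at the bottom stay below 1%.

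Tested on their own, intron reads of 30 of the 34 genes had enough reads. Srsf2 and Srsf6 had too few. Over 12 libraries none differed between days, against 0.15% of 8676 genes (Srrm1 0.64 ± 0.19, adjusted p = 0.14, and Luc7l −0.58 ± 0.18, adjusted p = 0.164, edgeR). In the 8 Th2 and Th17 libraries 8 passed, 7 higher and 1 lower at day 3.5, against 13.7% of 8141 genes (5.43% higher and 8.28% lower). The median was 0.29 over the 30 genes and 0.02 over all genes. Srsf7 rose most: 102 and 35 intron reads at day 3.5 in Th2 NFATc1/ΔS and Th2 WT, and 188 and 94 in Th17, against 21, 14, 45 and 52 at day 2.5 in the same order (log2 fold change 1.05 ± 0.18, adjusted p = 0.000201, edgeR). Srrm1, a speckle coactivator of splicing, had 123, 53, 160 and 72 intron reads at day 3.5 and 32, 27, 30 and 53 at day 2.5 (0.87 ± 0.18, adjusted p = 0.00176, edgeR), while its exon reads did not pass (0.05, adjusted p = 0.646, edgeR). Srsf10 had 157, 56, 228 and 131 intron reads at day 3.5 and 43, 35, 66 and 98 at day 2.5 in that order (0.63 ± 0.17, adjusted p = 0.0113, edgeR), followed by Ddx17, Srrm2, Ddx5 and Ccnl1. Luc7l had 56, 64, 72 and 44 at day 3.5 and 51, 56, 50 and 68 at day 2.5, and was lower after scaling to the intron reads of each library (−0.52 ± 0.18, adjusted p = 0.0447, edgeR). In each of the 4 Th2 and Th17 pairs Srsf7, Srsf10 and Srrm1 had more reads at day 3.5, while Luc7l had fewer unscaled reads there in Th17 WT alone. Leaving out either Th17 NFATc1/ΔS library gave 1 call, and leaving out either Th17 WT library gave 13.

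**Figure D5:**
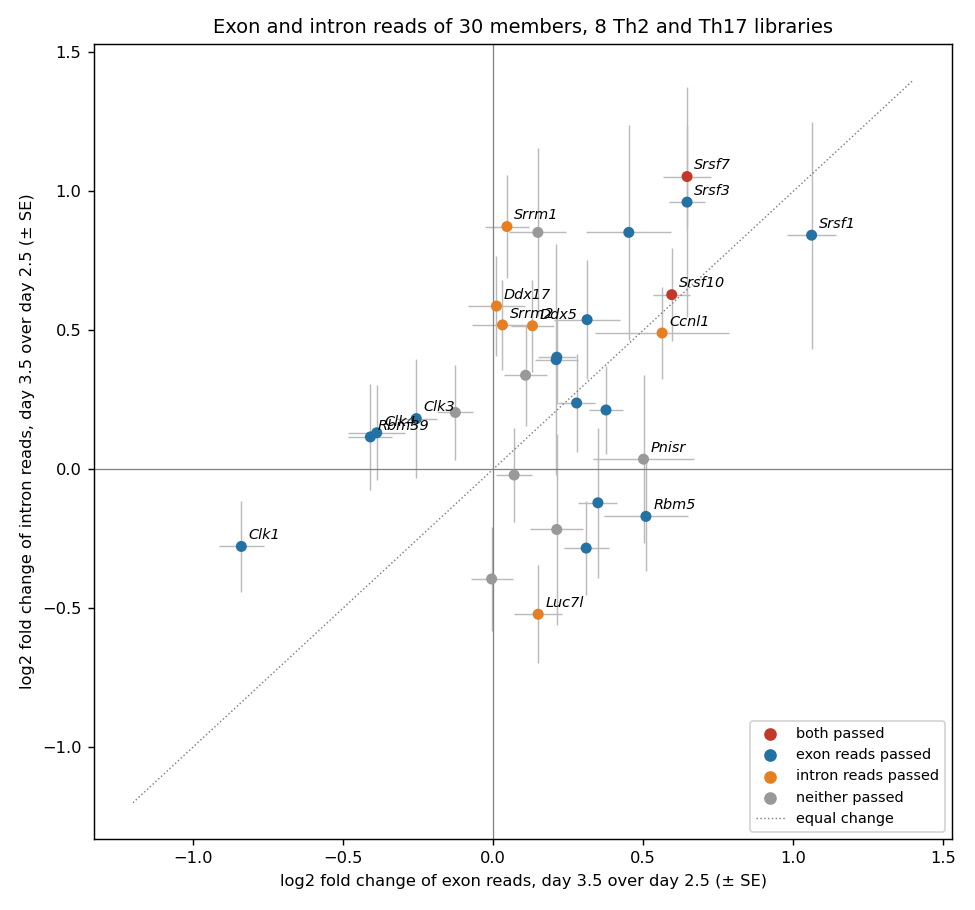
Log2 fold changes between day 3.5 and day 2.5 of exon reads (horizontal) and intron reads (vertical) in the 8 Th2 and Th17 libraries, with SE bars, for 30 genes. Srsf7 and Srsf10 passed in both, Clk1 passed for exon reads alone (−0.84), and Srrm1 for intron reads alone (0.87).

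These values are scaled to intron reads. Scaled to exon reads the median of all genes became 0.42, and 10 of the 30 passed, all higher. Of the 8, only 3 overlap no other gene; DESeq2 called 2. Intron reads differed for none of the 30 between genotypes over 6 pairs (0.0346% of genes) or 4 pairs (0.221%) or by genotype and day (0.111%, with 0.0246% higher and 0.086% lower; Rbm25 0.74 ± 0.27, adjusted p = 0.433, edgeR). Under the exon scaling 7 passed for genotype by day, all higher, against 2.41% of genes. Prpf4b and Srsf7 had the smallest p between genotypes over 4 pairs (adjusted p = 0.435 and 0.631, edgeR). Th1 against Th2 called Srsf10 (0.87 ± 0.26, adjusted p = 0.0325, edgeR) and Ccnl2 (0.66 ± 0.21, adjusted p = 0.046, edgeR), higher in Th1, against 16.3% of genes. Th1 against Th17 (3.54% of genes) and Th2 against Th17 (7.3%) called none. Without both Th1 day 2.5 libraries, Th1 against Th2 called Srrm2 (−0.82), Clk3 (−0.81) and Ccnl2 (0.62), against 24.4% of genes. Th1 against Th17 then called Srrm2 (−0.63), against 14.5%, and Th2 against Th17 called Srsf7 (−0.66), Luc7l (0.56), Clk3 (0.56) and Rbm25 (−0.43), against 19.4%. Without Th1 NFATc1/ΔS day 2.5 alone, Th1 against Th2 called Srsf7 (0.74) and Luc7l (−0.58), against 17.9% of genes, Th1 against Th17 none (5.67%) and Th2 against Th17 Luc7l (0.55; 11.8%).

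Intron reads were then set against exon reads of the same gene, which shows whether the 2 changed unequally. Over 12 libraries the day comparison called none (0.199% of 8023 genes). In the 8 Th2 and Th17 libraries 8 of 30 passed, 5 higher and 3 lower, against 7.94% of 7546 genes (3.72% higher and 4.21% lower). The ratio of intron to exon reads was higher at day 3.5 for Srrm1 (0.82 ± 0.18, adjusted p = 0.00153, edgeR), Ddx17, Clk1 (0.57 ± 0.17, adjusted p = 0.0195, edgeR), Rbm39 (0.52 ± 0.15, adjusted p = 0.017, edgeR) and Clk4. It was lower for Rbm5 (−0.71 ± 0.20, adjusted p = 0.0157, edgeR), Luc7l (−0.67 ± 0.18, adjusted p = 0.0108, edgeR) and Tra2a (−0.59 ± 0.17, adjusted p = 0.0155, edgeR). Clk1, Clk4 and Rbm39 are genes whose exon reads fell. Clk1 had an intron share of 10.53% at day 3.5 and 4.19% at day 2.5 in Th2 NFATc1/ΔS, 5.36% and 2.86% in Th2 WT, 9.34% and 4.51% in Th17 NFATc1/ΔS and 7.89% and 6.02% in Th17 WT. DESeq2 called none, scaling to exon reads called 3, and 3 of the 8 genes overlap no other gene. Leaving out either Th17 NFATc1/ΔS library gave 1. Between genotypes no gene of the 30 passed (0.0249% and 0.053% of genes over 6 and 4 pairs), with Prpf4b at the smallest p in both (adjusted p = 0.774 and 0.705, edgeR). Th1 against Th2 called Srsf4 (0.64 ± 0.18, adjusted p = 0.0418, edgeR; 4.21% of genes), of whose exon reads 33.0% are unique, and the comparisons of Th1 and Th2 with Th17 called none (0.96% and 0.785%).

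Without both Th1 day 2.5 libraries the intron to exon ratio was higher in Th1 than in Th2 for Srsf4 (0.54) and lower for Srrm2 (−0.61), Ddx17 (−0.72), Clk3 (−0.75) and Ccnl1 (−0.52), against 11.1% of genes. Th1 against Th17 then called Ddx17 (−0.81), against 9.58% of genes, and Th2 against Th17 called Luc7l (0.73), Rbm25 (−0.46) and Srsf11 (−0.50), against 6.21%. Without Th1 NFATc1/ΔS day 2.5 alone, none of the 30 passed for Th1 against Th2 (4.62% of genes) or Th1 against Th17 (2.34%), and Luc7l (0.71) passed for Th2 against Th17 (2.3%).

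Other genes of the pathway were followed by lists, to be read against the 21% of all genes that were higher and the 20.1% that were lower at day 3.5 in the 8 Th2 and Th17 libraries. In these libraries exon reads of 5 of 9 paraspeckle proteins were higher at day 3.5 and 2 lower. Sfpq, an RNA-binding protein of paraspeckles, was among those that rose (log2 fold change 0.92 ± 0.08, adjusted p = 3.33e-05, edgeR). Of 25 hnRNP proteins, which often oppose SR proteins at exons, 13 rose and 4 fell, with Hnrnph1 (0.57 ± 0.06, adjusted p = 8.9e-05, edgeR) and Hnrnpa2b1 (0.57 ± 0.07, adjusted p = 0.000181, edgeR). Of 44 core spliceosome proteins 22 rose and 3 fell; Sf3b1, the branch-site factor, fell (−0.59 ± 0.06, adjusted p = 7.26e-05, edgeR) and Prpf31 rose (0.52 ± 0.08, adjusted p = 0.000522, edgeR). Of 16 SR-related speckle proteins 5 rose and 1 fell, with Bclaf1 at 0.77 ± 0.08 (adjusted p = 8.89e-05, edgeR) and Rsrp1 at −0.81 ± 0.08 (adjusted p = 5.1e-05, edgeR). Of 8 SR protein kinases and phosphatases 2 rose, Ppp1r8 (0.41 ± 0.07, adjusted p = 0.00102, edgeR) and Ppm1g (0.30 ± 0.07, adjusted p = 0.0037, edgeR), and 2 fell, which is near the share of all genes. Of 15 nonsense-mediated decay factors 5 rose and 2 fell, with Upf1, the helicase of this pathway, at 0.39 ± 0.07 (adjusted p = 0.00142, edgeR) and Eif4a3, of the exon junction complex, at 0.33 ± 0.07 (adjusted p = 0.0033, edgeR). Medians of these lists were −0.07 to 0.19, against 0.03 over all genes.

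For genotype by day, where 0.286% of all genes passed, 2 of the 16 SR-related speckle proteins did, both higher: Nktr (0.80 ± 0.13, adjusted p = 0.00687, edgeR), a cyclophilin-related protein with an arginine- and serine-rich part, and Acin1 (0.64 ± 0.11, adjusted p = 0.00948, edgeR). Nktr had 93.6 CPM in Th2 NFATc1/ΔS and 63.2 in Th2 WT at day 3.5, against 64.6 and 72.9 CPM at day 2.5. Of the 44 core spliceosome proteins Sf3b5 passed (−0.55 ± 0.11, adjusted p = 0.0456, edgeR), and Prpf39 did not (0.94 ± 0.19, adjusted p = 0.0645, edgeR). None of the other 4 lists had a gene that passed. Over the 6 genotype pairs no gene of any of the 6 lists passed. Th1 against Th2, which called 28.6% of all genes over 12 libraries, called 4 of 25 hnRNP proteins higher and 1 lower, led by Hnrnpll (1.03 ± 0.13, adjusted p = 0.000685, edgeR), a regulator of Ptprc splicing in T cells, and 2 of 44 core spliceosome proteins higher and 3 lower, led by Plrg1 (−0.96 ± 0.11, adjusted p = 0.000465, edgeR). Of 16 SR-related proteins it called 2 higher and 1 lower, with Scaf11 at −0.44 and Rsrc2 at 0.35, and it also called the SR protein kinase Srpk1 (−0.32) and Upf1 (0.70). The called share of each of the 6 lists was below that of all genes. Without both Th1 day 2.5 libraries, when 47.6% of all genes passed, it called 5 hnRNP proteins higher and 6 lower, 5 core spliceosome proteins higher and 9 lower, and 4 SR-related proteins each way. Of the other lists it called 1 kinase or phosphatase higher and 3 lower, 4 nonsense-mediated decay factors higher and 2 lower, and 2 paraspeckle proteins higher and 1 lower. The named genes passed there too, with Hnrnpll at 1.00, Plrg1 at −1.05, Scaf11 at −0.38, Rsrc2 at 0.35, Srpk1 at −0.27 and Upf1 at 0.32.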

How the data were processed

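Poly(A) RNA-seq of 12 libraries was used, as whole-number read counts per gene that the authors deposited without normalization. Per the file headers these are split into exon, exon-exon and intron reads, with unique reads counted apart. The build is GRCm38, per the submitters' processing notes; for the aligner and the counter, names are not given in the sources used. Exon reads, intron reads, and intron against exon reads were each fitted over all genes with edgeR 4.0.16 (R 4.3.3) by robust quasi-likelihood, with filterByExpr (minimum count 10, minimum total 15), TMM scaling and Benjamini-Hochberg adjustment at 0.05. Day was tested with cell type and genotype as blocks, and genotype with cell type and day as blocks. Log2 fold changes have their SE. The alternatives used DESeq2 1.42.0 and limma 3.58.1. Members of a comparison were described in full where they passed and changed most, up to 4 each way on exon reads and 3 on intron reads, or else the 2 of smallest p; of each other list the 2 of smallest p were named, apart from a gene that is not reported here. The tests were run on simulated data first. The simulation gave all genes the same spread and held no library that stood apart. It therefore does not show how the tests behave with the Th1 day 2.5 libraries. The genes and lists were chosen with earlier results of these data known. The comparisons within Th2 and Th17 cells, and those without both Th1 day 2.5 libraries, were added after the data had been examined.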

Additional observations from a re-analysis of the deposited data

Results flagged for a closer look

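In the library labelled Th1 NFATc1/ΔS day 2.5, 12 genes lay far above the other 3 Th1 libraries. The SR proteins among them had 576.5 CPM of Srsf1, 532.1 of Srsf2, 607.9 of Srsf3, 135.6 of Srsf4, 250.0 of Srsf6, 288.7 of Srsf7 and 191.4 of Srsf10. The others had 113.3 CPM of Tra2a, 344.4 of Tra2b, 233.8 of Luc7l2, 115.8 of Luc7l3 and 441.6 of Son. In Th2, NFATc1/ΔS at day 3.5 lay above the other 3 libraries for Prpf4b (48.8 CPM) and Luc7l2 (174.1 CPM), and in Th17 the WT library of day 2.5 lay below the others for Snrnp70 (222.4 CPM). In all 102 groups of 4 libraries were examined. The limit used marks about 1 in 20 groups of 4 replicates. The 4 libraries of a group differ in genotype and day, so that rate does not apply here. The Th1 library marked for 12 genes also stood apart over all genes. The share of all genes marked in the same way was not computed.

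The day difference of Clk1 was unequal among Th1, Th2 and Th17 (adjusted p = 0.0348, edgeR). The genotype difference depended on the day in Th2 and Th17 for Ccnl1 (1.0 on the log2 scale, edgeR), Malat1 (0.85), Pnisr (0.78), Rbm5 (0.67) and Srsf5 (0.67).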

How the results depend on the processing

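Counts below are of the 34 genes on exon reads, or of the 30 tested on intron reads. Over the 12 libraries the day comparison gave 0 on exon reads, but 20 without the Th1 libraries and 20 without both Th1 day 2.5 libraries. On intron reads it gave 8 in both of these settings, 1 with no read filter and 2 with intron reads scaled as exon reads, and on intron against exon reads 8, 8 and, so scaled, 6. Unequal day effects were called for 8 by DESeq2, 3 on exon-exon reads and 3 with no replicate block. Genotype by day gave 8 with no read filter, 2 with DESeq2, 2 on exon-exon reads, 0 with no replicate block and 0 with the Th1 libraries; on intron reads scaled as exon reads it gave 7. Th1 against Th2 gave 0 with RLE size factors, no read filter, limma-voom or exon-exon reads, 3 with DESeq2 and 7 without both Th1 day 2.5 libraries. Th1 against Th17 gave 2 with DESeq2, 1 on unique or exon-exon reads and 7 without those 2 libraries, and Th2 against Th17 gave 1 with DESeq2 and 7 without them.

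In Th2 and Th17, the 8 calls between days on intron reads became 2 with DESeq2 and 3 among genes overlapping no other gene, and the 8 on intron against exon reads became 0 with DESeq2, 3 among such genes and 3 with the exon scaling. For cell types, the exon scaling gave 5 on intron reads for Th1 against Th2 and 1 for Th2 against Th17, and 2 and 3 on intron against exon reads. Without both Th1 day 2.5 libraries intron reads gave 1 for Th1 against Th17 and 4 for Th2 against Th17, and intron against exon reads gave 5 for Th1 against Th2, 1 for Th1 against Th17 and 3 for Th2 against Th17. Th1 against Th2 on intron against exon reads gave 0 with DESeq2 and 0 among genes overlapping no other gene. Ccnl2 between days turned to −0.0075 on exon-exon reads. The cause was not tested.

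Leaving out 1 library at a time gave 14 to 21 exon calls between days in Th2 and Th17, 0 to 21 for unequal day effects, 1 to 5 for genotype by day, 0 to 3 for Th1 against Th2, 0 to 1 for Th1 against Th17 and 0 to 3 for Th2 against Th17. On intron reads it gave 0 to 1 between days, 1 to 13 between days in Th2 and Th17, 0 to 2 for Th1 against Th2 and 0 to 1 for Th2 against Th17. On intron against exon reads it gave 1 to 7 between days in Th2 and Th17, and 0 to 1 for each pair of cell types. A block that loses a library no longer bears on the comparison within it. Of 46 results for single genes, 13 kept their call in every setting.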
